A study of Rattus norvegicus with 11 samples.

Results

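Glucose uptake, glycolysis and the entry of pyruvate into the mitochondrion were followed through 36 genes, named one by one and looked up by symbol among the 23781 genes of the count table. All 36 were found, and all 36 were among the 18049 genes that passed the filter on low counts. The cells came from calvarial defects that crossed the coronal suture of 4-month-old Sprague Dawley rats, in which the overlying periosteum had been removed. The defect was left empty (NC) or received gelatin methacryloyl hydrogel (GelMA), a porous chitosan scaffold (CTS) or an electrospun membrane of polylactic acid (PLA), and the new tissue was collected 6 weeks later. In every group the tissue was digested with collagenase, and the cells went through red cell lysis, fixation and permeabilization before Cd45- cells were sorted for RNA-seq. NC, GelMA and CTS had 3 libraries each and PLA had 2, and the labels do not say whether libraries came from separate animals, so p-values measure the spread between libraries. Total counts were 22509898 to 27522199 in NC, 29108144 to 30587865 in GelMA, 28377088 to 31290849 in CTS and 30150370 to 30932534 in PLA. All 4 leukocyte genes listed as markers were detected in each of the 11 libraries, so leukocyte transcripts were present despite the sort. Levels are in CPM, the read counts relative to library totals that were first scaled by TMM, a correction for composition described below. Ptprc, which encodes Cd45, stood at 1019.6 and 1055 CPM in the PLA libraries. The 4 leukocyte genes held 0.262% of counts in both PLA libraries, 0.313 to 0.346% in GelMA, 0.265 to 0.329% in CTS and 0.0631 to 0.365% in NC. NC replicate 2 stood apart, with 1.13, 19.1 and 3.34% of counts in 7 fibroblast genes in NC replicates 1, 2 and 3, and calls of members that are gained or lost without it are given beside each gene.

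Glycolysis turns glucose into pyruvate in the cytosol. Glucose enters through facilitative transporters, is trapped by hexokinase, and is committed to breakdown by phosphofructokinase. Pyruvate is then either reduced to lactate by lactate dehydrogenase and exported with protons by monocarboxylate transporters, or carried into the mitochondrion, where the pyruvate dehydrogenase complex makes acetyl-CoA unless its kinases switch it off. Macrophages, neutrophils, proliferating fibroblasts and osteoblasts are all known as users of aerobic glycolysis, and the transcription factor HIF-1 is a known activator of many of these genes. Most steps have several isoforms that differ between cell types.

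The sequences just upstream of 4 of these genes are shown because the genes carry the main contrasts of the data. Slc2a1 and Tpi1 had the largest rises in PLA against NC and CTS, and Ldha and Ldhb, the paired subunits of lactate dehydrogenase, moved in opposite directions. Each run holds the 250 bases before the annotated start, 5′ to 3′ in the direction of the gene, from RefSeq on the assembly GRCr8, a later build than the mRatBN7.2 named for the count table. Capitals mark ACGTG or GCGTG, the cores of the hypoxia response element, on either strand. The positions were chr5:138002272-138002521, plus strand for Slc2a1, chr4:159305089-159305338, minus strand for Tpi1, chr1:106507842-106508091, plus strand for Ldha and chr4:177177409-177177658, minus strand for Ldhb.
Slc2a1: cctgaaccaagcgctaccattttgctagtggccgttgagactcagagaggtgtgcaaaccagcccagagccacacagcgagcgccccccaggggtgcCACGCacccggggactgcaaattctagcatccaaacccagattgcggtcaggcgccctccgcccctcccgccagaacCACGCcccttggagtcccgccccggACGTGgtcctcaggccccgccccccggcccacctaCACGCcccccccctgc
Tpi1: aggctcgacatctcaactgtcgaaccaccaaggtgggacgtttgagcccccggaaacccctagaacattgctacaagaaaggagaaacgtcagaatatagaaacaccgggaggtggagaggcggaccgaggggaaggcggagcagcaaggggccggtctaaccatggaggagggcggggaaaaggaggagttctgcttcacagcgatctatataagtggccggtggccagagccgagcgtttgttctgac
Ldha: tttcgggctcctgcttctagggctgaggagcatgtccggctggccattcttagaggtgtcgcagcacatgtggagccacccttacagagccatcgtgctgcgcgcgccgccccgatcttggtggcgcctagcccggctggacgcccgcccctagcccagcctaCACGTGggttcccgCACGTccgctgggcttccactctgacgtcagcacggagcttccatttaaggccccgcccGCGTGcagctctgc
Ldhb: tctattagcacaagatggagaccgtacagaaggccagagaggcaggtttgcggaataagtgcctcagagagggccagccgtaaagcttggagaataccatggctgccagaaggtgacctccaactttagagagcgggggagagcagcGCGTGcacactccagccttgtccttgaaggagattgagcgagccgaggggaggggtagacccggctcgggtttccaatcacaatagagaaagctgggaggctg
Slc2a1 held ACGTG 51 bases before its start and GCGTG on the reverse strand 153, 76 and 16 bases before it. Ldha held a CACGTG, which reads as ACGTG on both strands, with its first letter 87 bases before the start, a further ACGTG on the reverse strand at 73 and GCGTG at 14. Ldhb held 1 GCGTG at 103, and Tpi1 held neither in this window. Of the 36 members 34 had an entry, the first entry being used for the 3 genes with several, and 44.1% of them held ACGTG, against 16.6% of all 33469 promoters and 20.8% of the 13222 whose gene was tested. GCGTG was held by 50%, against 25.9% and 39.9%. Among the members called higher in PLA against every other group, as given below, Slc2a1, Pgam1 and Ldha held ACGTG. Pfkl and Pdk1 held GCGTG alone, and Hk1, Aldoa, Tpi1 and Pkm held neither. Pdhb, whose PLA libraries lay below all others, held 2 CACGTG and 1 GCGTG. These are matches of letters only, with no test, and no binding was measured here.

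With libraries scaled by TMM, genes of most steps from glucose uptake to lactate were higher in PLA than in every other group. Genes of the pyruvate carrier and dehydrogenase complex were not. Scaling by library size alone called fewer members higher, as given below. A gene was called when the Benjamini-Hochberg adjusted p from edgeR's quasi-likelihood test was under 0.05 and the log2 fold change was beyond 1 in size, with libraries scaled by TMM (trimmed mean of M-values), which corrects for differences in composition. Relative to NC, 14 of the 36 members were called higher and 2 lower, where 8.32% of all tested genes were higher and 4.01% lower. Relative to GelMA, 10 passed upward and 1 downward (4.61% and 1.47% of all genes). Relative to CTS, 13 passed upward and 0 downward (6.42% and 3.53%). The median log2 fold change of the members was 0.91, 0.94 and 0.94 against NC, GelMA and CTS, and that of all genes was −0.11, −0.04 and −0.03. A set of 9 members was called higher in all 3 comparisons, namely Slc2a1, Hk1, Pfkl, Aldoa, Tpi1, Pgam1, Pkm, Ldha and Pdk1, where 3.31% of all genes were, and 0 were lower in all 3, against 0.321% of all genes. The comparisons share the PLA libraries. The members were chosen with earlier results of these data known, so their counts beside the shares of all genes are a description only. With no fold threshold the numbers became 14 and 4 (10.1% and 5.5% of all genes) relative to NC, 10 and 2 (5.99% and 3.19%) relative to GelMA, and 13 and 3 (8.11% and 5.86%) relative to CTS. Both PLA libraries lay above all 9 others for 19 members, against 12.9% of all genes, and below all 9 others for 4, namely Ldhb, Mpc1, Pdk2 and Pdhb, against 9.22%.

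**Figure D1:**
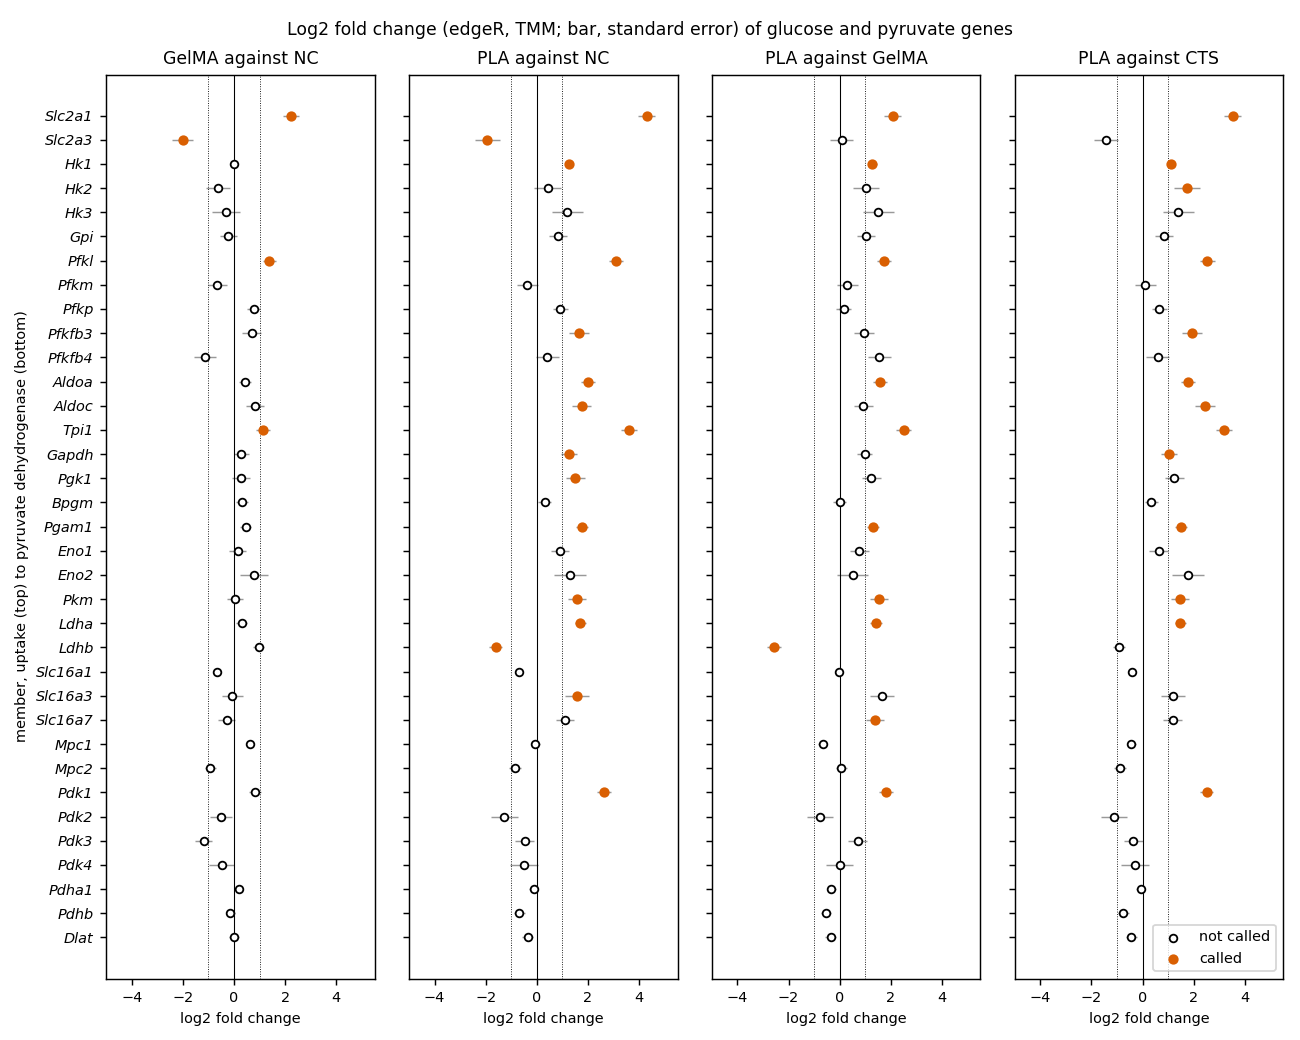
Log2 fold change (x axis) of 35 members in order of the pathway (y axis) in 4 comparisons, with bars for the standard error, filled points for called genes and dotted lines at −1 and 1. In the 3 PLA panels filled points lie on the right from Slc2a1 down to Pdk1. Ldhb is filled on the left in 2 of them and Slc2a3 on the left against NC. No gene of the pyruvate carrier or dehydrogenase complex is filled in these panels. Fbp1, at 0 to 14 counts per library, is left out.

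The size of these counts depended on the scaling, the model and single libraries. The 36 genes held 1.37 and 1.35% of all counts in PLA, against 0.718 to 0.824% in GelMA, 0.722 to 0.737% in CTS and 0.875, 0.348 and 0.719% in NC. A share of all counts is a level on library-size scaling, so it shifts with the composition of a library. With library size in place of TMM, the median of all genes in PLA moved by −0.34, −0.54 and −0.48 in log2 against NC, GelMA and CTS. The members called higher then numbered 9, 4 and 8, against 5.97%, 2.43% and 3.81% of all genes. Those called lower numbered 6, 3 and 5, against 8.48%, 12.8% and 12.3% of all genes. Under both scalings Slc2a1, Pfkl, Tpi1 and Pdk1 were called higher in all 3 comparisons (1.71% of all genes with library size), and Ldhb and Pdhb were lower in all 3 with library size (2.96%). The PLA libraries then lay above all 9 others for 15 members (7.1% of all genes) and below them for 8 (20.2%). Leaving out NC replicate 2 gave 16, 16 and 18 members higher and 3, 1 and 2 lower, where 11.4%, 7.2% and 8.88% of all genes were higher and 7.58%, 3.49% and 6.21% lower. In contrasts without NC the log2 fold changes hardly moved, and calls changed through the spread, which the model shares over all 4 groups. For Hk3 in PLA against GelMA, the value was 1.5 in both fits, with an SE of 0.61 with all libraries and 0.17 without NC replicate 2. A fit of PLA and NC alone called 5 members higher and 0 lower (3.56% and 0.186% of all genes in that fit). It lost the calls of Slc2a3, Pfkfb3, Aldoa, Aldoc, Gapdh, Pgk1, Pgam1, Pkm, Ldha, Ldhb and Slc16a3 against NC. Fits of PLA with GelMA or CTS alone called 16 and 17 higher (10.1% and 9.24% of all genes) and 1 lower each (4.98% and 6.7%). Without PLA replicate 1 or 2, the members higher than in NC fell to 8 or 9, where 4.55% or 4.7% of all genes were higher. Those higher than in GelMA fell to 6 in both cases (1.9% or 1.94% of all genes). In such bulk libraries, fewer cells of a type and less RNA per cell cannot be told apart.

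**Figure D2:**
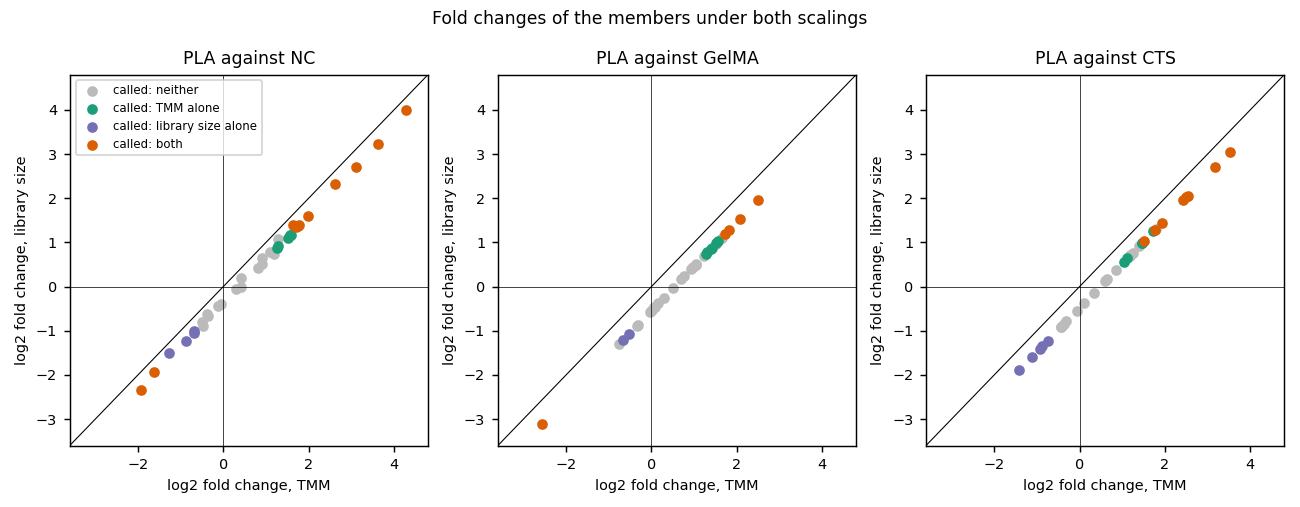
Log2 fold change of 35 members (Fbp1 left out) with TMM (x axis) and with library size (y axis) in the 3 PLA comparisons, colored by the scaling under which each was called, with the line of equality. All points lie below the line, and the farthest at the upper right, among them Slc2a1, Tpi1, Pfkl and Pdk1, were called under both scalings.

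Glucose transporters changed places between the groups. Slc2a1, which encodes the widely expressed transporter GLUT1, was the member with the largest rise in PLA against NC and CTS. Its level was 1799.8 and 1898 in PLA, 340.4, 432 and 546 in GelMA, 160.3, 111 and 211 in CTS and 90.9, 128 and 65.9 in NC in CPM after TMM, with libraries in order of replicate number here and in all later values. Both PLA libraries stood above all GelMA libraries, and all GelMA libraries above every CTS and NC library. The log2 fold change of Slc2a1 in PLA was 4.29 (SE 0.35, adjusted p = 5.75e-05) against NC, 2.07 (SE 0.33, adjusted p = 0.00433) against GelMA and 3.52 (SE 0.34, adjusted p = 0.000172) against CTS, from edgeR's quasi-likelihood test here and below. Slc2a1 also rose in GelMA against NC, by 2.21 (SE 0.31, adjusted p = 0.00214), and was lower in CTS than in GelMA, at −1.45 (SE 0.3, adjusted p = 0.0398). All its calls in PLA and in GelMA against NC were kept without any single library, while the call between CTS and GelMA was kept only without NC replicate 1, NC replicate 2, NC replicate 3 or CTS replicate 3, with adjusted p up to 0.170 when another library was left out.

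Slc2a3, which encodes GLUT3, a high-affinity transporter abundant in neurons and leukocytes, went the other way. It stood at 185 and 204 in PLA, 231, 198 and 125 in GelMA, 539.9, 594 and 422 in CTS and 1199.8, 322 and 705 in NC in CPM. NC replicates 1 and 3 were the highest libraries, and PLA lay within the range of GelMA. Slc2a3 was called lower than in NC in PLA, at −1.93 (SE 0.48, adjusted p = 0.0231), and in GelMA, at −2.01 (SE 0.42, adjusted p = 0.0150). Its value of −1.42 (adjusted p = 0.0740) against CTS did not pass with TMM and passed with library size, at −1.9 (adjusted p = 0.0298), without NC replicate 2, at −1.42 (adjusted p = 0.00640), and without NC replicate 1, at −1.42 (adjusted p = 0.0255). CTS was called above GelMA without NC replicate 2, at 1.49 (adjusted p = 0.00602), or without NC replicate 1, at 1.49 (adjusted p = 0.0354). The call in PLA against NC was lost without PLA replicate 1 or PLA replicate 2 (log2 fold change −1.86 to −2.0, adjusted p 0.133 to 0.154), and that in GelMA was lost without GelMA replicate 2 or GelMA replicate 3 (log2 fold change −1.84 to −2.11, adjusted p 0.0577 to 0.0670). Slc2a1 made up 94.2 and 93.96% of the summed FPKM (a read level per gene length) of both transporters in PLA and 71.2, 78.5 and 87.95% in GelMA. In CTS it made up 33.2, 23.9 and 45.5% and in NC 11.3, 39.9 and 13.5%. The 4 groups order as PLA, GelMA, CTS and NC by mean share, with CTS and NC overlapping, and a share within a library does not depend on the scaling. The 8 neutrophil genes, summed, ran at 8404 to 63599 CPM in NC, 27812 to 43418 in CTS, 5217 to 12411 in GelMA and 11476 to 11489 in PLA, and their part in the level of Slc2a3 was not tested.

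**Figure D3:**
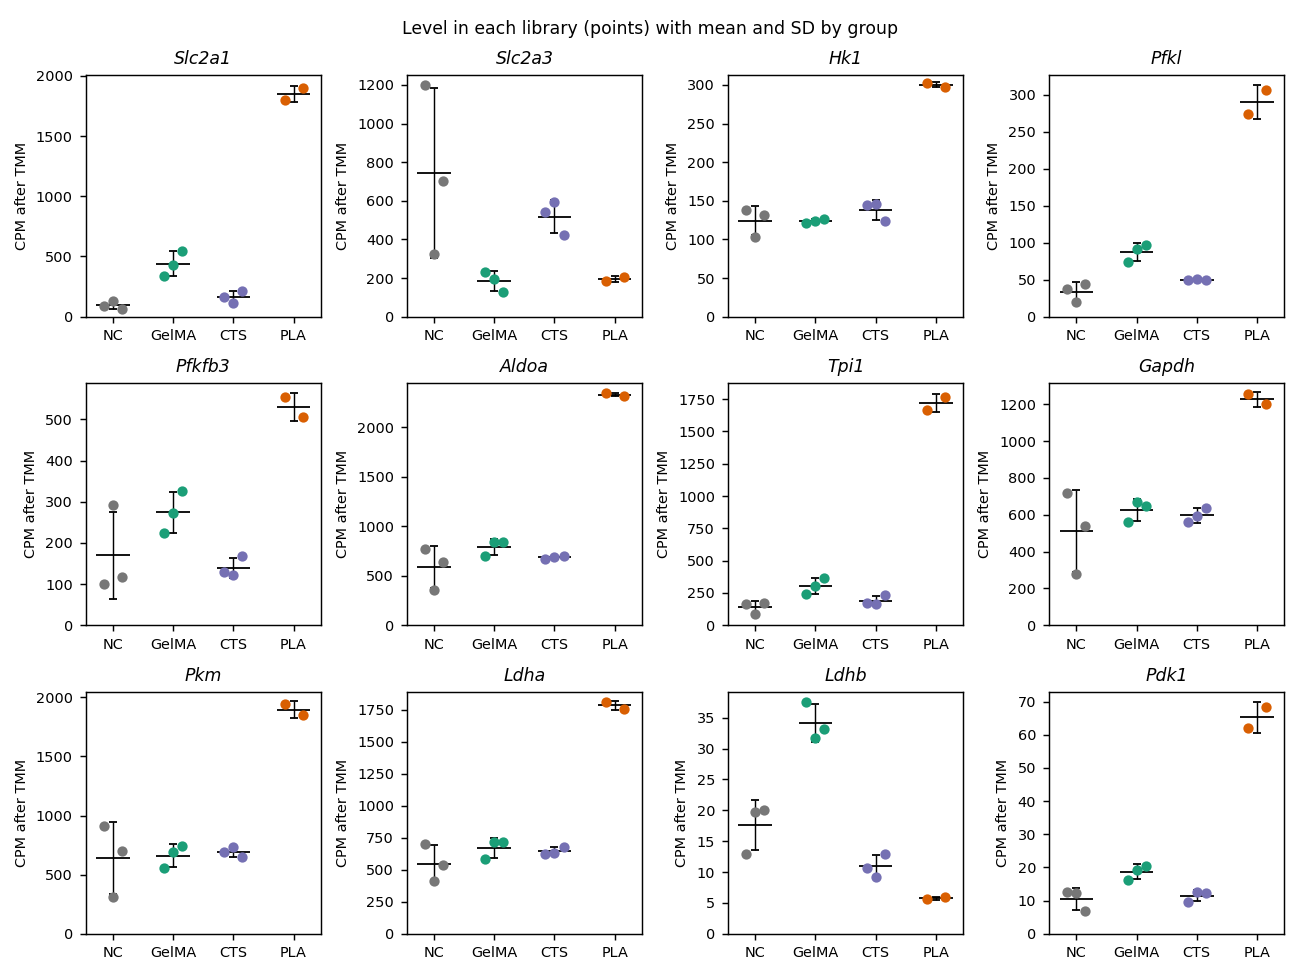
CPM after TMM (y axis, from 0) of 12 members in each library (points) by group, with lines for the mean and bars for the SD (n = 3 in NC, GelMA and CTS, n = 2 in PLA). Both PLA points lie above all others for 10 of the genes, and lie lowest for Ldhb. Slc2a3 is highest in NC.

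Hexokinases trap glucose as glucose 6-phosphate. Hk1, the constitutive isoform bound to mitochondria, stood at 303 and 298 in PLA, 121, 123 and 126 in GelMA, 144, 147 and 123 in CTS and 139, 103 and 131 in NC in CPM. Its GelMA, CTS and NC libraries overlapped, and PLA lay above all of them. Log2 fold changes of Hk1 were 1.27 (SE 0.16, adjusted p = 0.000616) against NC, 1.28 (SE 0.16, adjusted p = 0.00130) against GelMA and 1.12 (SE 0.16, adjusted p = 0.00165) against CTS. The call against CTS was lost without CTS replicate 3 (log2 fold change 0.99, adjusted p 0.0101), and with library size all 3 values of Hk1 were under the fold threshold, at 0.91, 0.74 and 0.64. Hk2, the inducible isoform, was called in PLA against CTS alone when all libraries were used. It stood at 269.9 and 250.1 in PLA, 99.4, 129 and 150.0 in GelMA, 66.7, 69.9 and 99.4 in CTS and 82.9, 377 and 125 in NC in CPM, so that NC replicate 2 was the highest of all 11 libraries. Against CTS its value was 1.72 (SE 0.51, adjusted p = 0.0493), a call that was kept only without NC replicate 1 or NC replicate 2, with adjusted p up to 0.196 when another library was left out. With library size that value was 1.25 (adjusted p = 0.0554), which was not called. Without NC replicate 2, Hk2 was called in all 3 PLA comparisons, and its value against NC moved from 0.42 (adjusted p = 0.637) to 1.32 (adjusted p = 0.00366). Its value against GelMA stayed near 1.05, with the adjusted p of 0.233 becoming 0.00907 without that library. Hk3, an isoform of leukocytes, stood at 214 and 225 in PLA, 61.1, 85.96 and 85.8 in GelMA, 88.8, 90.6 and 71.6 in CTS and 154, 17.98 and 119 in NC in CPM, so that PLA was above all 9 other libraries. It was not called with all libraries, and without NC replicate 2 it was called higher in PLA than in GelMA, at 1.5 (adjusted p = 0.000160), and than in CTS, at 1.39 (adjusted p = 0.000183). Gpi, which turns glucose 6-phosphate into fructose 6-phosphate, stood at 654 and 614 in PLA, 283, 335 and 311 in GelMA, 350.0, 383 and 327 in CTS and 521, 167 and 396 in NC in CPM and was not called with all libraries, although both PLA libraries were the highest. Against GelMA it was called without NC replicate 2, at 1.03 (adjusted p = 0.000414), or without NC replicate 1, at 1.04 (adjusted p = 0.0475), and against NC without NC replicate 1, at 1.17 (adjusted p = 0.0392).

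Phosphofructokinase commits the sugar to glycolysis, and its liver-type gene, Pfkl, rose in PLA. Pfkl stood at 274 and 306 in PLA, 74.1, 90.9 and 97.1 in GelMA, 49.1, 51.2 and 49.8 in CTS and 37.04, 19.7 and 44.6 in NC in CPM. PLA was higher than GelMA, and GelMA higher than CTS and NC, without overlap. The log2 fold changes in PLA were 3.1 (SE 0.29, adjusted p = 0.000106) against NC, 1.73 (SE 0.28, adjusted p = 0.00458) against GelMA and 2.54 (SE 0.28, adjusted p = 0.000384) against CTS, and all 3 were kept without any single library. GelMA was higher than NC by 1.37 (SE 0.26, adjusted p = 0.00942), a call that was lost without GelMA replicate 3 (log2 fold change 1.24, adjusted p 0.0503). The muscle and platelet isoforms, Pfkm and Pfkp, were not called in any PLA comparison with all libraries. Without NC replicate 2, Pfkp was called higher than in NC in PLA, at 1.33 (adjusted p = 0.000425), and in GelMA, at 1.18 (adjusted p = 0.00106). Pfkl took 86.2 and 88.4% of the summed FPKM of the 3 isoforms in PLA, 67.3, 70.6 and 72.6% in GelMA, 64.5, 64.98 and 58.5% in CTS and 67.1, 28.9 and 63.8% in NC, where the NC library at 28.9% is NC replicate 2. 

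Pfkfb3 makes fructose 2,6-bisphosphate, the allosteric activator of phosphofructokinase. It stood at 553 and 506 in PLA, 225, 272 and 326 in GelMA, 129.5, 121 and 167 in CTS and 99.3, 292 and 118 in NC in CPM, with PLA highest and NC replicate 2 within the range of GelMA. Its log2 fold change was 1.64 (SE 0.4, adjusted p = 0.0203) against NC and 1.93 (SE 0.4, adjusted p = 0.0113) against CTS, and its value of 0.95 (adjusted p = 0.167) against GelMA was not called. The call against NC was lost without NC replicate 3, PLA replicate 1 or PLA replicate 2 (log2 fold change 1.35 to 1.7, adjusted p 0.0765 to 0.109), and the call against CTS was lost without CTS replicate 1, CTS replicate 2, PLA replicate 1 or PLA replicate 2 (log2 fold change 1.79 to 1.99, adjusted p 0.0539 to 0.0758). Pfkfb4, another enzyme of this kind, stood at 89.5 and 83.2 CPM in PLA, within the range of the NC libraries, and was not called with all libraries. Without NC replicate 2 it was called higher in PLA than in GelMA, at 1.54 (adjusted p = 0.000209), as it was without NC replicate 1, at 1.54 (adjusted p = 0.0301), and lower in GelMA than in NC, at −1.54 (adjusted p = 0.000386). Pfkfb3 was then called higher in GelMA than in NC, at 1.33 (adjusted p = 0.000787). Fbp1, a gluconeogenic phosphatase that opposes phosphofructokinase, had 0 and 1 counts in PLA, 11, 1 and 0 in GelMA, 14, 4 and 14 in CTS and 0, 9 and 3 in NC. At such counts no difference was detectable, and no fold is given.

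Aldolase and triosephosphate isomerase split the hexose and interconvert the triose products. Aldoa, the main aldolase outside liver and brain, had the highest mean FPKM of the 36 members in PLA, at 975 ± 14.3 against 321 ± 147 in NC. It stood at 2341 and 2317 in PLA, 698, 837 and 841 in GelMA, 674, 690.4 and 701 in CTS and 767, 356 and 641 in NC in CPM, and the other 3 groups overlapped. Its log2 fold changes in PLA were 1.99 (SE 0.27, adjusted p = 0.00106) against NC, 1.56 (SE 0.27, adjusted p = 0.00746) against GelMA and 1.76 (SE 0.27, adjusted p = 0.00270) against CTS. Against GelMA the call was lost without PLA replicate 1 or PLA replicate 2 (log2 fold change 1.54 to 1.56, adjusted p 0.0580 to 0.0612), and with library size it did not pass, at 1.02 (adjusted p = 0.0538). Aldoc, the brain-type aldolase, made up under 1% of the aldolase FPKM in every library. It stood at 11.9 and 6.92 in PLA, 3.93, 4.89 and 6.04 in GelMA, 1.83, 1.33 and 2.07 in CTS and 3.31, 1.99 and 3.101 in NC in CPM and was called against NC, at 1.75 (adjusted p = 0.0128), and against CTS, at 2.43 (adjusted p = 0.00295), the former being a call that was lost without PLA replicate 1 (log2 fold change 1.3, adjusted p 0.145). Aldoc was called lower in CTS than in GelMA without NC replicate 2, at −1.51 (adjusted p = 0.0123), or without NC replicate 1, at −1.51 (adjusted p = 0.0426).

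Tpi1, the single triosephosphate isomerase gene, rose more than any other enzyme of the core pathway. Its level was 1669 and 1768 in PLA, 241, 307 and 367 in GelMA, 170.2, 165 and 233 in CTS and 165, 86.9 and 169 in NC in CPM. PLA stood above GelMA, and GelMA above CTS and NC, without overlap. Log2 fold changes of Tpi1 were 3.61 (SE 0.31, adjusted p = 7.09e-05) against NC, 2.49 (SE 0.3, adjusted p = 0.00115) against GelMA and 3.18 (SE 0.31, adjusted p = 0.000172) against CTS, all kept without any single library. In GelMA against NC it was 1.12 (SE 0.27, adjusted p = 0.0287), a call that was lost without NC replicate 2, NC replicate 3, GelMA replicate 2, GelMA replicate 3 or CTS replicate 1 (log2 fold change 0.87 to 1.22, adjusted p 0.00868 to 0.128). The FPKM of Tpi1 was 1.32 and 1.46 times that of Gapdh, the next enzyme, in the PLA libraries, 0.426, 0.454 and 0.563 times in GelMA, 0.301, 0.277 and 0.362 times in CTS and 0.227, 0.307 and 0.312 times in NC. Both PLA ratios lay above those of the 9 other libraries, and a ratio within a library does not depend on the scaling.

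The enzymes that earn ATP, from glyceraldehyde 3-phosphate to pyruvate, had smaller log2 fold changes than Tpi1. Gapdh, used as the reference gene in the study's own RT-qPCR of cultured cells, stood at 1254 and 1199 in PLA, 561, 671 and 647 in GelMA, 561, 591 and 638 in CTS and 721, 280.3 and 538 in NC in CPM. Both PLA libraries were the highest, and GelMA, CTS and NC overlapped. Gapdh was called against NC, at 1.26 (SE 0.31, adjusted p = 0.0215), and, with an adjusted p that rounds to the threshold of 0.05, against CTS, at a log2 fold change of 1.04, and its value of 0.97 (adjusted p = 0.0796) against GelMA was not called. The call against NC was lost without NC replicate 2, NC replicate 3, PLA replicate 1 or PLA replicate 2 (log2 fold change 0.96 to 1.29, adjusted p 0.00118 to 0.114), and the call against CTS was kept only without NC replicate 1 or NC replicate 2, with adjusted p up to 0.211 when another library was left out. With library size Gapdh was called in none of the PLA comparisons, at 0.87, 0.43 and 0.56. Pgk1, which makes the first ATP, stood at 1013 and 990.4 in PLA, 389, 431 and 461 in GelMA, 433, 435 and 405 in CTS and 513, 149.9 and 393 in NC in CPM, with PLA highest. With all libraries it was called against NC alone, at 1.51 (SE 0.38, adjusted p = 0.0237), a call that was lost without NC replicate 3, PLA replicate 1 or PLA replicate 2 (log2 fold change 1.49 to 1.53, adjusted p 0.0595 to 0.111) and that did not pass with library size, at 1.1 (adjusted p = 0.102). Pgk1 was called, without NC replicate 2, in all 3 PLA comparisons, at 1.23 (adjusted p = 9.55e-05) against GelMA and 1.24 (adjusted p = 6.13e-05) against CTS, and without NC replicate 1 at 1.23 (adjusted p = 0.0336) and 1.24 (adjusted p = 0.0251). Bpgm, which makes the 2,3-bisphosphoglycerate of red cells, stood at 14.6 and 14.8 in PLA, 14.1, 17.9 and 12.1 in GelMA, 9.78, 10.8 and 14.4 in CTS and 10.4, 10.8 and 14.8 in NC in CPM, lay above CTS and within the ranges of GelMA and NC in PLA, and was not called.

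Pgam1, the phosphoglycerate mutase, was at 938 and 982 in PLA, 366, 389.8 and 407 in GelMA, 315, 334 and 364 in CTS and 359, 183 and 304 in NC in CPM. PLA was separate from the other groups, and the log2 fold changes were 1.77 (SE 0.24, adjusted p = 0.00106) against NC, 1.31 (SE 0.24, adjusted p = 0.01002) against GelMA and 1.51 (SE 0.24, adjusted p = 0.00321) against CTS. The call against GelMA was lost without GelMA replicate 1, GelMA replicate 2, PLA replicate 1 or PLA replicate 2 (log2 fold change 1.25 to 1.33, adjusted p 0.0501 to 0.0820), and with library size it did not pass, at 0.77 (adjusted p = 0.101). Eno1, the ubiquitous enolase, stood at 742 and 707 in PLA, 397, 451 and 431 in GelMA, 487, 479.8 and 444 in CTS and 549, 170.4 and 442 in NC in CPM and was not called with all libraries, with values of 0.9, 0.77 and 0.62 against NC, GelMA and CTS, although it passed against NC without NC replicate 1, at 1.24 (adjusted p = 0.039981). Eno2, the neuronal enolase, stood at 64.7 and 48.99 in PLA, 37.7, 43.6 and 39.1 in GelMA, 9.66, 15.3 and 24.6 in CTS and 7.38, 46.9 and 15.6 in NC in CPM and was not called with all libraries. Without NC replicate 2, Eno2 was called higher in PLA than in NC, at 2.3 (adjusted p = 0.00464), and than in CTS, at 1.78 (adjusted p = 0.00790), the latter also without NC replicate 1, at 1.78 (adjusted p = 0.0246). GelMA was then higher than NC, at 1.8 (adjusted p = 0.0139), and CTS lower than GelMA, at −1.28 (adjusted p = 0.0429). Pkm, the pyruvate kinase gene of most tissues, stood at 1946 and 1849 in PLA, 554, 689 and 740.1 in GelMA, 694, 733 and 647 in CTS and 914, 309 and 701 in NC in CPM. Its values in PLA were 1.56 (SE 0.35, adjusted p = 0.0149), 1.52 (SE 0.35, adjusted p = 0.0266) and 1.46 (SE 0.35, adjusted p = 0.0229) against NC, GelMA and CTS. Against NC the call of Pkm was lost without PLA replicate 1 or PLA replicate 2 (log2 fold change 1.53 to 1.6, adjusted p 0.0743 to 0.0849), against GelMA it was lost without GelMA replicate 1, GelMA replicate 2, GelMA replicate 3, PLA replicate 1 or PLA replicate 2 (log2 fold change 1.39 to 1.59, adjusted p 0.0666 to 0.142), and against CTS it was lost without CTS replicate 1, CTS replicate 2, CTS replicate 3, PLA replicate 1 or PLA replicate 2 (log2 fold change 1.36 to 1.49, adjusted p 0.0679 to 0.123). With the replicate number as a block, Hk2 and Gapdh were not called against CTS (adjusted p = 0.0650 and 0.0852), and Pkm was not called against GelMA (adjusted p = 0.0628). With library size none of the 3 values of Pkm passed, at 1.17 (adjusted p = 0.0728), 0.99 (adjusted p = 0.111) and 0.98 (adjusted p = 0.114). Aldoa, Tpi1, Gapdh, Pgk1, Pgam1, Eno1, Pkm and Ldha are known for processed pseudogenes, and how reads shared with such copies were counted is not given in the sources used here, so their levels are uncertain to that extent.

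The subunits of lactate dehydrogenase parted. Ldha, whose subunit favors the making of lactate, stood at 1809 and 1757 in PLA, 582, 713 and 714 in GelMA, 619.7, 630.0 and 679 in CTS and 697, 410.4 and 534 in NC in CPM, and Ldhb, whose subunit favors its use, at 5.56 and 5.93 in PLA, 37.6, 31.8 and 33.2 in GelMA, 10.7, 9.17 and 12.9 in CTS and 12.9, 19.8 and 20.1 in NC. PLA was the highest group for Ldha and the lowest for Ldhb, without overlap, and GelMA was the highest for Ldhb. Ldha rose in PLA by 1.7 (SE 0.22, adjusted p = 0.000747) against NC, 1.41 (SE 0.22, adjusted p = 0.00403) against GelMA and 1.47 (SE 0.22, adjusted p = 0.00220) against CTS, each kept without any single library. With library size Ldha was called against NC, at 1.34 (adjusted p = 0.0126), and fell under the fold threshold against GelMA, at 0.88 (adjusted p = 0.0476), and CTS, at 0.99 (adjusted p = 0.0303). Ldhb was called lower in PLA than in NC, at −1.61 (SE 0.25, adjusted p = 0.00225), and than in GelMA, at −2.57 (SE 0.26, adjusted p = 0.000580), and lower in CTS than in GelMA, at −1.65 (SE 0.22, adjusted p = 0.00909). The call between CTS and GelMA was lost without GelMA replicate 3, CTS replicate 1 or CTS replicate 2 (log2 fold change −1.51 to −1.64, adjusted p 0.0521 to 0.0682), and the 2 calls in PLA were kept without any single library. In the edgeR fit of PLA and NC alone, neither Ldha, at 1.76 (adjusted p = 0.0521), nor Ldhb, at −1.56 (adjusted p = 0.0828), was called. Against CTS, Ldhb in PLA was under the fold threshold at −0.93 (adjusted p = 0.0328) with TMM and called at −1.41 (adjusted p = 0.00668) with library size, or at −1.08 (adjusted p = 0.0405) without CTS replicate 2. GelMA was called above NC for Ldhb without NC replicate 2, at 1.05 (adjusted p = 0.00738), or without NC replicate 3, at 1.0 (adjusted p = 0.0438). The ratio of Ldha to Ldhb in FPKM was 245 and 223 in PLA, 11.6, 16.9 and 16.2 in GelMA, 43.6, 51.8 and 39.6 in CTS and 40.6, 15.6 and 20.05 in NC. The lowest PLA ratio was thus above the highest of the other 9 libraries, and the GelMA ratios overlapped with NC replicate 2.

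Lactate leaves cells mainly through MCT4, the product of Slc16a3, and crosses in either direction through MCT1, the product of Slc16a1. Slc16a3 stood at 792 and 762 in PLA, 224, 260.1 and 262 in GelMA, 389.6, 317 and 317 in CTS and 379, 81.97 and 320.5 in NC in CPM, highest in PLA and lowest in NC replicate 2. With all libraries it was called in PLA against NC alone, at 1.58 (SE 0.46, adjusted p = 0.0449), and the call was kept only without NC replicate 1 or NC replicate 2, with adjusted p up to 0.170 when another library was left out. It did not pass with the replicate block (adjusted p = 0.0602) or with library size, at 1.16 (adjusted p = 0.139). Slc16a3 was called, without NC replicate 2, in all 3 PLA comparisons, at 1.64 (adjusted p = 1.54e-05) against GelMA and 1.19 (adjusted p = 8.95e-05) against CTS, and without NC replicate 1 it was also called against GelMA, at 1.64 (adjusted p = 0.0342). Slc16a1 stood at 159 and 134 in PLA, 152, 151 and 147 in GelMA, 195, 204 and 185 in CTS and 237, 255 and 217 in NC in CPM, with GelMA and PLA below all NC libraries. Its values of −0.69 (adjusted p = 0.0119) in PLA and −0.66 (adjusted p = 0.0126) in GelMA against NC were under the fold threshold with TMM. Library size gave −1.02 (adjusted p = 0.00563) in PLA, which was called. Slc16a3 made up 86.3 and 87.8% of the FPKM of the 3 listed transporters in PLA, 65.4, 68.7 and 69.5% in GelMA, 71.9, 66.6 and 68.7% in CTS and 67.2, 29.1 and 65.5% in NC. Slc16a7, the gene of MCT2, was scarce, at 7.67 and 9.84 in PLA, 2.46, 4.55 and 3.01 in GelMA, 4.696, 3.13 and 3.802 in CTS and 4.96, 4.11 and 3.14 in NC in CPM. Its call in PLA against GelMA, at 1.39 (adjusted p = 0.0396), was kept only without NC replicate 1, NC replicate 2 or NC replicate 3, with adjusted p up to 0.249 when another library was left out, and it did not pass with the replicate block (adjusted p = 0.107) or with library size, at 0.85 (adjusted p = 0.123). Against CTS it was called without NC replicate 2, at 1.17 (adjusted p = 0.0321), or without NC replicate 1, at 1.18 (adjusted p = 0.0409).

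**Figure D4:**
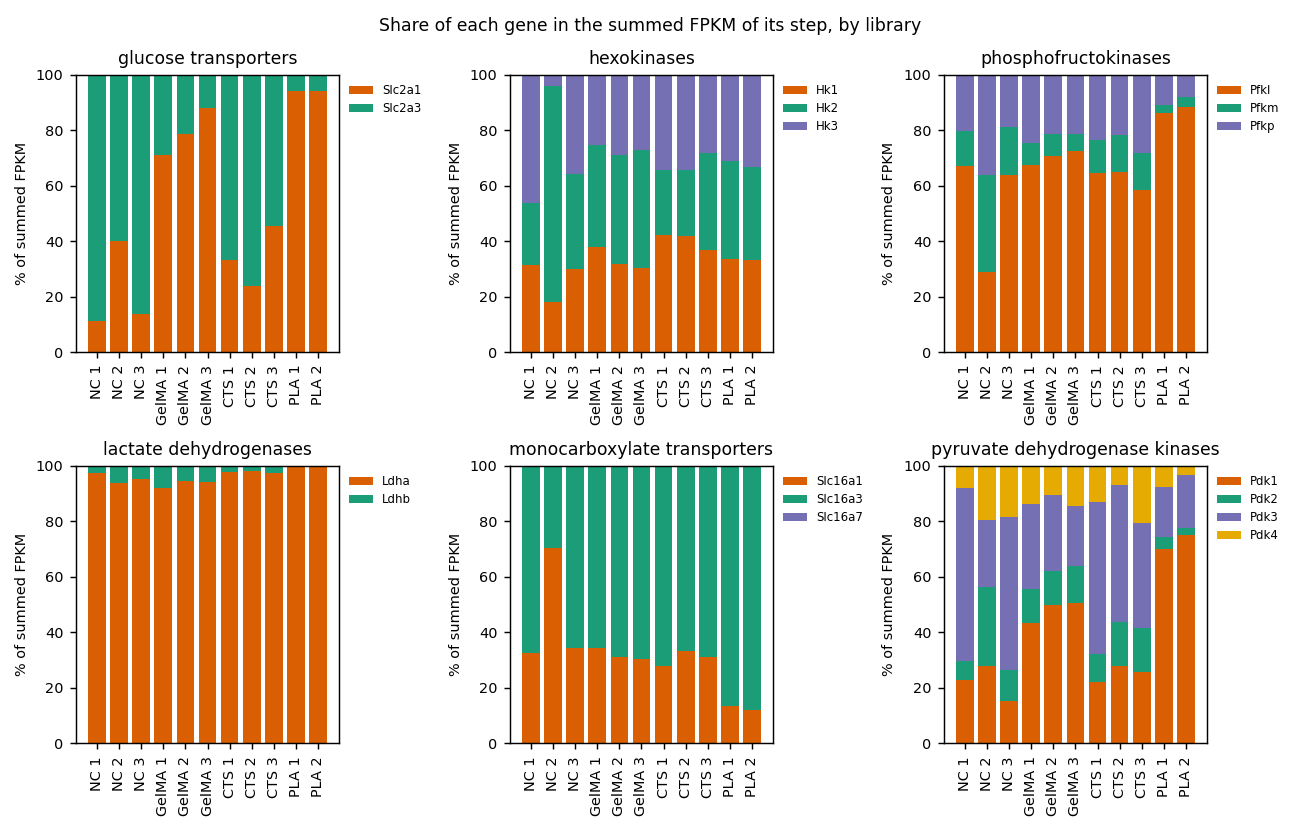
Share of each gene in the summed FPKM of its step (y axis, 0 to 100%) in each of the 11 libraries (x axis) for 6 steps with several isoforms. The PLA bars have the largest shares of Slc2a1, Pfkl, Ldha, Slc16a3 and Pdk1, the hexokinase bars of PLA lie close to those of GelMA and CTS, and NC replicate 2 differs from the other NC bars at most steps.

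Mpc1 and Mpc2 form the carrier that takes pyruvate into the mitochondrion, and neither was called with TMM and all libraries. Mpc2 stood at 28.8 and 33.5 in PLA, 34.03, 28.5 and 26.5 in GelMA, 55.8, 63.2 and 51.95 in CTS and 73.03, 41.4 and 55.5 in NC in CPM, with GelMA and PLA below NC and CTS. Its value was −0.86 (adjusted p = 0.0335) in PLA against NC, under the fold threshold with TMM and called at −1.23 (adjusted p = 0.0223) with library size and at −1.05 (adjusted p = 0.00162) without NC replicate 2. Against CTS it was −0.87 (adjusted p = 0.0352), and −1.35 (adjusted p = 0.0134) with library size, which was called. In GelMA against NC, Mpc2 was called lower without NC replicate 2, at −1.11 (adjusted p = 0.000948), without NC replicate 3, at −1.0 (adjusted p = 0.0423), or without GelMA replicate 1, at −1.1 (adjusted p = 0.0369). Mpc1 stood at 22.3 and 22.4 CPM in PLA and 39.02, 36.7 and 30.4 in GelMA, and its value of −0.66 (adjusted p = 0.0401) passed the fold threshold with library size alone, at −1.2 (adjusted p = 0.00597).

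The pyruvate dehydrogenase complex turns pyruvate into acetyl-CoA, and its kinases, Pdk1 to Pdk4, inactivate it. Pdk1 stood at 61.98 and 68.5 in PLA, 16.1, 19.2 and 20.6 in GelMA, 9.57, 12.6 and 12.3 in CTS and 12.6, 12.2 and 6.81 in NC in CPM, with PLA above all others and GelMA above CTS and NC. Its log2 fold changes in PLA were 2.63 (SE 0.27, adjusted p = 0.000187) against NC, 1.81 (SE 0.26, adjusted p = 0.00280) against GelMA and 2.5 (SE 0.27, adjusted p = 0.00030036) against CTS, each kept without any single library and with library size. The other kinases were not called with TMM and all libraries. Pdk3 stood at 183, 55.98 and 130.2 CPM in NC and 83.9 and 91.8 in PLA, and without NC replicate 2 it was called lower in GelMA than in NC, at −1.53 (adjusted p = 0.000282), and higher in CTS than in GelMA, at 1.07 (adjusted p = 0.00224). Pdk2 and Pdk4 stood at no more than 13.2 CPM in any library. Pdk1 took 70.05 and 75.2% of the FPKM of the 4 kinases in PLA, 43.4, 49.7 and 50.4% in GelMA, 21.95, 27.97 and 25.8% in CTS and 22.8, 27.8 and 15.3% in NC. Shares of GelMA thus lay between those of PLA and those of the other 2 groups. Pdk2 was called lower in PLA with library size against NC, at −1.51 (adjusted p = 0.0438), and against CTS, at −1.59 (adjusted p = 0.0319), and without NC replicate 2 against CTS, at −1.11 (adjusted p = 0.0399).

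Of the complex itself, Pdha1, the catalytic E1 alpha subunit, stood at 169 and 178 in PLA, 261, 210.1 and 181 in GelMA, 187, 171 and 189 in CTS and 184, 209 and 174 in NC in CPM. PLA lay below all GelMA libraries and overlapped with NC and CTS, and Pdha1 was not called. Pdhb, the E1 beta subunit, was at 32.5 and 28.02 CPM in PLA, below all 9 other libraries, where 60.7, 36.1 and 49.2 was measured in NC. With TMM its values of −0.69, −0.54 and −0.75 against NC, GelMA and CTS were not called, and with library size it was called lower in all 3, at −1.05, −1.07 and −1.23. Dlat, the E2 subunit, was not called under either scaling. Dlat stood at 20.9 and 17.1 CPM in PLA and 23.98, 29.1 and 20.02 in NC.

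GelMA and CTS differed less from the empty defect. In GelMA against NC, 3 members were called higher, namely Slc2a1, Pfkl and Tpi1, and 1 lower, namely Slc2a3, where 5.03% of all genes were higher and 3.21% lower. The 3 that were higher are also among the 9 called in PLA against all groups. Leaving out NC replicate 2 gave 6 higher and 4 lower (7.26% and 6.71% of all genes). With library size 6 were higher and 1 lower (6.74% and 2.35% of all genes), and Pfkp, Ldhb and Pdk1 joined, at 1.03 (adjusted p = 0.0137), 1.17 (adjusted p = 0.00823) and 1.05 (adjusted p = 0.0169). In CTS against NC, edgeR called 0 members, where 0.155% of all genes were higher and 0.0222% lower. Library size also gave 0 and 0 (0.432% and 0.0388%), and DESeq2 called 0 higher and 0 lower. At an unadjusted p under 0.05 from edgeR with TMM, 3 members were higher and 2 lower. The share of all genes at that looser threshold is not given here, and no difference is read from those counts. In CTS against GelMA, 0 were higher and 2 lower, namely Slc2a1 and Ldhb (0.416% and 1.32% of all genes), and library size gave the same 2 (0.216% and 1.44%). Without NC replicate 2, CTS had 0 and 0 against NC (0.609% and 0.145%), and 2 higher and 4 lower against GelMA (3.75% and 3.38%). With no fold threshold, 5 were higher and 3 lower in GelMA against NC (6.74% and 3.97%), 0 and 0 in CTS against NC (0.166% and 0.0222%), and 1 and 2 in CTS against GelMA (0.504% and 1.58%). The mean level of Slc2a1 was 161 ± 49.7 CPM in CTS and 94.8 ± 31.1 in NC (SD, n = 3 each), groups that overlapped.

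Lists of neighbouring pathways were also chosen with earlier results of these data known. Their counts stand beside the shares of all genes called in PLA against NC, GelMA and CTS. With TMM those shares were 8.32%, 4.61% and 6.42% higher and 4.01%, 1.47% and 3.53% lower. Library size gave shares of 5.97%, 2.43% and 3.81% higher and 8.48%, 12.8% and 12.3% lower. Of 8 genes of the pentose phosphate pathway, which makes NADPH and ribose from glucose 6-phosphate, the PLA comparisons with NC, GelMA and CTS called 0, 0 and 1 higher and 2, 0 and 2 lower. With library size they were 0, 0 and 0 higher and 2, 1 and 3 lower. Rpia, the ribose 5-phosphate isomerase, had −1.72 (adjusted p = 0.0223) against NC. Pgls, the lactonase, had −1.42 (adjusted p = 0.0102) against CTS. H6pd, the dehydrogenase of the endoplasmic reticulum, had 1.0 (adjusted p = 0.0121) there. Of 12 genes of glycogen metabolism, 0, 1 and 0 were higher and 3, 0 and 2 lower against NC, GelMA and CTS. With library size they were 0, 0 and 0 higher and 3, 2 and 3 lower. The TMM calls included Gyg1, the primer of glycogen, at −2.13 (adjusted p = 0.0177) against NC, and Phkb, a subunit of phosphorylase kinase, at −1.59 (adjusted p = 0.000217). Ugp2, which makes UDP-glucose and is named after its value was seen, was lower than in NC at −1.42 (adjusted p = 0.00215). Gbe1, the branching enzyme, was higher than in GelMA at 1.64 (adjusted p = 0.0376).

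Among 17 genes of the citric acid cycle, 0 were higher in each PLA comparison, and 1 was lower, Idh2, at −1.11 (adjusted p = 0.00357) against CTS. With library size 0, 5 and 10 of the 17 were lower, under which 8.48%, 12.8% and 12.3% of all genes were lower. Their median log2 fold change with TMM was −0.28, −0.39 and −0.6 against NC, GelMA and CTS. Of 5 tested genes of gluconeogenesis, 3 were lower than in NC, where 4.01% of all genes were lower (8.48% with library size, which also called 3), namely G6pc3 at −1.2 (adjusted p = 0.049992), Pck2 at −1.15 (adjusted p = 0.0134) and Pc at −1.07 (adjusted p = 0.0233), the last named after its value was seen. Pc was also lower than in CTS, at −1.07 (adjusted p = 0.0259). The 5 genes of the hexosamine branch and 5 further genes of the pyruvate dehydrogenase complex and its phosphatases had 0 calls with edgeR and TMM in the 3 PLA comparisons, and with library size 1 further gene of the complex was lower than in GelMA and 1 than in CTS. At an unadjusted p under 0.05 there were 0, 0 and 0 hexosamine genes higher and 0, 0 and 0 lower against NC, GelMA and CTS. For the further genes of the complex the numbers were 1, 1 and 0 higher and 0, 1 and 1 lower. Shares of all genes at an unadjusted p are not given here, and no difference is read from these counts.

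Of 16 tested isoforms of glucose uptake and glycolysis outside the 36, the comparisons with NC, GelMA and CTS called 2, 2 and 1 higher, where 8.32%, 4.61% and 6.42% of all genes were higher, and 1, 0 and 1 lower. Counts of this size in 16 genes lie near those shares. Slc2a6, a transporter of lysosomes in myeloid cells, stood at 86.4 and 99.6 in PLA, 22.98, 25.3 and 24.8 in GelMA, 32.9, 35.8 and 25.1 in CTS and 33.8, 7.82 and 28.5 in NC in CPM. Both PLA libraries were the highest, with log2 fold changes of 1.99 (adjusted p = 0.0154), 1.93 (adjusted p = 0.0274) and 1.57 (adjusted p = 0.0430) against NC, GelMA and CTS. Ldhc, the testis subunit, was higher than in GelMA at 1.57 (adjusted p = 0.0493), and Adpgk, an ADP-dependent glucokinase, was lower than in NC at −2.35 (adjusted p = 0.0236). Eno3, the muscle enolase, named after its value was seen, was higher than in NC at 1.51 (adjusted p = 0.0106). Among the 8 HIF subunits and regulators, the same comparisons called 4, 2 and 4 higher, beside the same 8.32%, 4.61% and 6.42% of all genes, and 0 lower. With library size they were 3, 2 and 2 higher, beside 5.97%, 2.43% and 3.81% of all genes. Egln3, a prolyl hydroxylase that marks HIF for breakdown and is itself a known HIF target, stood at 219.9 and 257 in PLA, 38.7, 42.8 and 61.99 in GelMA, 25.02, 25.5 and 16.7 in CTS and 35.01, 15.7 and 20.1 in NC in CPM, with PLA above all others. Its log2 fold changes were 3.34 (adjusted p = 0.000221), 2.32 (adjusted p = 0.00294) and 3.41 (adjusted p = 0.000245) against NC, GelMA and CTS, and those of Egln1, the main prolyl hydroxylase, were 2.17 (adjusted p = 2.77e-05), 1.73 (adjusted p = 0.000304) and 1.78 (adjusted p = 7.82e-05). Hif1a and Epas1, the oxygen-regulated subunits, named after their values were seen, were higher than in NC at 1.5 (adjusted p = 0.00115) and 1.69 (adjusted p = 0.0411) and than in CTS at 1.29 (adjusted p = 0.00342) and 1.83 (adjusted p = 0.0328).

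Transcripts of several cell types moved between the groups beside these genes. The 8 monocyte and macrophage genes, summed, ran at 3952 to 4592 CPM in PLA, 5180.1 to 8706 in GelMA, 10078 to 12687 in CTS and 2584 to 10504 in NC. PLA had 4, 0 and 2 called higher and 0, 2 and 0 lower relative to NC, GelMA and CTS. Of all genes, 8.32%, 4.61% and 6.42% were called higher and 4.01%, 1.47% and 3.53% lower. Lyz2, not called, made up most of the sum of the monocyte and macrophage genes. Against CTS the called genes and the sum thus differed in sign, and against GelMA both were lower. The 4 leukocyte genes summed to 3365 to 3401 CPM in PLA, 2810.3 to 3026 in GelMA, 2469 to 3045 in CTS and 785 to 3483 in NC. Of the 8 neutrophil genes 1 was called higher and 2 lower in PLA than in NC, beside 8.32% and 4.01% of all genes. Their sum of 11476 to 11489 CPM in PLA lay below CTS, at 27812 to 43418, and within the ranges of NC and GelMA. The 4 B cell genes summed to 215 to 309 CPM in GelMA, 55.5 to 83.7 in CTS, 23.3 to 37.5 in PLA and 15.6 to 30.3 in NC. The 7 fibroblast genes summed to 25985 to 38991 CPM in PLA and 10801 to 237749.9 in NC, with 0 calls by edgeR in the 3 PLA comparisons. At an unadjusted p under 0.05, 0, 0 and 0 fibroblast genes were higher and 0, 0 and 0 lower. No marker of the 9 lists was at 0 in all libraries. Which cells carried the rise of the glycolytic genes, and the part that the makeup of the cells had in it, was not tested.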

How the data were processed

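RNA-seq counts of Cd45- cells were analysed in 11 libraries, 3 each of NC, GelMA and CTS and 2 of PLA, grouped and numbered by sample title. The authors deposited read counts per gene, and their notes name fastp, HISAT2, HTSeq, DESeq and the build mRatBN7.2. Versions, parameters and the use of strand are not given in the sources used here. The authors also deposited FPKM, and 205408 of 205408 values were recovered from the counts, the lengths of the genes and the totals to within a relative 0.001.

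The members and lists were chosen with earlier results of these data known. One robust quasi-likelihood model of all 4 groups was fitted in edgeR 4.0.16 (R 4.3.3) after filterByExpr (minimum count 10) and TMM, and 6 contrasts were tested with Benjamini-Hochberg adjustment over 18049 genes. The standard error is the log2 fold change over the square root of F. Levels are CPM on TMM-scaled totals. Isoform shares were not tested.

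Values in each library are given for members called in any comparison and for the member of highest FPKM at each step, and up to 2 called genes per direction are named from each neighbouring list. The alternatives were library size, RLE factors, no filter, no fold threshold, 2-group fits, DESeq2 1.42.0, a block for replicate number, omission of single libraries and, for shares, counts not divided by length. The code was tested on simulated data. Promoters are from RefSeq (GRCr8). Plots used matplotlib 3.10.9 under Python 3.11.15.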

Additional observations from a re-analysis of the deposited data

How the results depend on the processing

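Below, paired counts of members are higher then lower. The share of all genes called differed between fits. For genes higher in PLA than in GelMA it was 1.9% without PLA replicate 1 and 10.1% in the fit of 2 groups. Where that share is not given above, the counts of members only show how far their calls changed. With library size the counts were 6 and 1 for GelMA against NC, 9 and 6 for PLA against NC, 4 and 3 against GelMA, 8 and 5 against CTS, and 4 and 2 in all 3 PLA comparisons. With no fold threshold they were 5 and 3 for GelMA against NC, 1 and 2 for CTS against GelMA, 14 and 4, 10 and 2, and 13 and 3 for PLA against NC, GelMA and CTS, and 9 and 1 in all 3. Fits of 2 groups gave 1 and 0 for GelMA against NC, 2 and 4 for CTS against GelMA, 5 and 0, 16 and 1, and 17 and 1 for PLA, and 5 higher in all 3. RLE factors and no filter each gave 2 lower for GelMA against NC. Without the filter, 4 of the 64 single fold changes described below lost their call, and with RLE factors all 64 were unchanged in call. DESeq2 gave 3 lower for GelMA against NC, 2 higher for CTS against GelMA and 1 lower for PLA against CTS. The replicate block gave 1 lower for CTS against GelMA, losing Slc2a1. The libraries share only a number: over 15 same-numbered pairs the deviations from group means correlated by −0.11 to 0.12, with 1 pair over 0.1. Leaving out 1 library gave ranges of 1 to 6 and 0 to 4 for GelMA against NC, 0 to 2 and 0 to 4 for CTS against GelMA, 8 to 16 and 1 to 3 for PLA against NC, 6 to 16 and 1 to 1 against GelMA, 9 to 18 and 0 to 2 against CTS, and 6 to 12 and 0 to 1 in all 3. CTS against NC stayed at 0 in these fits. From counts not divided by length, mean shares were 69.9 and 90.5% for Slc2a1 in GelMA and PLA, 55.5, 48.5 and 78.6% for Pfkl in GelMA, CTS and PLA, 4.93, 1.67 and 0.321% for Ldhb, 61.8, 63.1 and 83.4% for Slc16a3, and 23.1, 8.58 and 40.9% for Pdk1, with 8.32% for Pdk1 in NC. The 64 single fold changes followed through the alternative fits gave 1088 values there, of which 0 reversed in sign. The 64 were picked for passing a threshold in these same data, and the fits share most libraries, so few reversals could occur. With 2 PLA libraries and unknown counting of shared reads, calls near the thresholds are the least certain.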
